A study of Homo sapiens with 12 samples.

Results

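The difference between 2 genotypes of one leukaemia cell line in their response to CC-885 was measured gene by gene, as the interaction of genotype and treatment. The members are the libraries of every group the contrast needs, which were 12 of 12 in the series, with 3 in each of 4 groups. THP1, labelled as AML blasts, is a human monocytic leukaemia line. The groups were WT cells with DMSO, WT cells with CC-885, IRAK4KO cells with DMSO and IRAK4KO cells with CC-885, each treated for 12 h, with CC-885 at 50 nM. Both genotypes had been electroporated with Cas9, with an sgRNA against IRAK4 for the knockout and without one for WT, and both were grown from single cells and screened by PCR and Sanger sequencing. How many clones stand behind each genotype was not given in the sources used here, so a difference between genotypes and a difference between clones cannot be told apart. Nothing in the labels says that the 3 libraries of a group came from separate cultures, so p-values measure only the spread between these libraries, which may be technical.

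CC-885 is a cereblon modulator: cereblon picks substrates for a ubiquitin ligase, and CC-885 bound to it brings in the translation termination factor GSPT1, which is then degraded. Loss of GSPT1 impairs the release of finished proteins from ribosomes and activates the integrated stress response, in which phosphorylation of eIF2alpha favours translation of ATF4 and transcription of its amino acid and stress genes. IRAK4 is the kinase that carries signals from Toll-like and interleukin-1 receptors through the adaptor MYD88. Type I interferon signals through factors that include STAT2 and IRF9, which bind a short element in the promoters of antiviral genes.

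Total counts per library ran from 46903984 to 56675539, and 16010 of 30017 gene symbols had enough counts to be tested. Markers of monocytic leukaemia were present in all groups: the 12 genes summed to between 2080 and 5680 CPM (reads per 1e6 of the TMM-scaled library), and none was at 0. Of the 11 T and NK cell markers in the table, 4 or 5 were at 0 in each group, and the list summed to at most 20.4 CPM, while the B cell list reached at most 8.66 CPM and the erythroid list 0.693 CPM. The 14 markers of epithelial, stromal and endothelial cells, 7 of them at 0 in each group, summed to 263 to 303 CPM in WT with DMSO, 108 to 117 CPM in WT with CC-885, 394 to 443 CPM in the knockout with DMSO and 94.1 to 101 CPM in the knockout with CC-885. Nearly all of that sum was PECAM1, which monocytes also express, and the other 13 genes summed to 1.38 to 3.61 CPM per library. The third WT library with CC-885 stood apart from the other members of its group: its counts differed from theirs by 76.1 and 62.3 (chi-square per degree of freedom over genes), against 5.05 between those other 2 and 4.1 to 21 within the other groups. Library names begin with 51 or 52, which the labels do not explain. The third WT library with CC-885 is the only 52 library of its group, so its distance and the prefix cannot be told apart. In WT with DMSO, the first library, the only one with 51, differed by 14.6 and 15.3 from the others, which were 6.14 apart. In the knockout with DMSO, the third, with 52, differed by 21 and 14, against 12.9. The knockout CC-885 group has no library with 52, so the interaction can be computed within the 51 libraries but not within the 52 libraries.

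The targeted transcript was lower in the knockout under both treatments, and its own response to CC-885 differed between genotypes. IRAK4 (chr12:43758951-43789541, GRCh38.p14) had 53.9, 50.9 and 51.6 CPM in WT with DMSO, 65.4, 69.4 and 83.6 CPM in WT with CC-885, 7.28, 8.72 and 8.78 CPM in IRAK4KO with DMSO, and 31.7, 30.7 and 29.6 CPM in IRAK4KO with CC-885. Every knockout library was below every WT library. The log2 response was 0.48 ± 0.09 (SE) in WT and 1.89 ± 0.09 in the knockout, a difference of 1.41 ± 0.13 (adjusted p = 1.9e-06, edgeR quasi-likelihood test with Benjamini-Hochberg adjustment over all genes tested, as for every adjusted p here). The position of the edit in the gene was not given in the sources used here, so reads outside it are counted too.

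The response to CC-885 differed between genotypes for 5562 of 16010 genes (34.7%) at an adjusted p under 0.05. The interaction is the knockout log2 response minus the WT log2 response: it was positive for 2871 genes (17.9%) and negative for 2691 (16.8%), and its median over all genes was -0.01. This split depends on scaling and on the filter, being 2168 positive and 3291 negative with upper-quartile factors and 1993 and 3185 with no filter on low counts. A difference of at least 2-fold was held by 963 genes (6.01%), of which 258 (1.61%) were positive and 705 (4.4%) negative. Within the 51 libraries alone, of which 1 is WT with DMSO, 5676 genes were called and 931 were of at least 2-fold. Of the 963 genes, 742 were called there, 650 were of at least 2-fold in both fits and 1 had the opposite sign. Without the third WT library with CC-885, 6872 genes were called, 3627 of them positive and 3245 negative. There 1110 were of at least 2-fold, and 853 of the 963 were of that size in both fits.

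Most genes in the group of 963 responded in the same direction in both genotypes. The fall was larger in the knockout for 345 genes (35.8%) and the rise was larger for 124, while the rise was smaller for 77 and the fall smaller for 2. A response that passed the test in the knockout and not in WT was found for 94 rises and 149 falls, and 35 and 24 of these had a WT response whose 95% interval lay within 1.5-fold of no change. A response that passed in WT and not in the knockout was found for 75 rises and 16 falls, with 28 and 1 knockout intervals within that bound. For 57 genes a rise in WT stood against a fall in the knockout, and for 18 genes the reverse, with both responses at least 1.5-fold for 27 and 7 of them. These classes describe the contrast that defined them and were not tested.

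**Figure D1:**
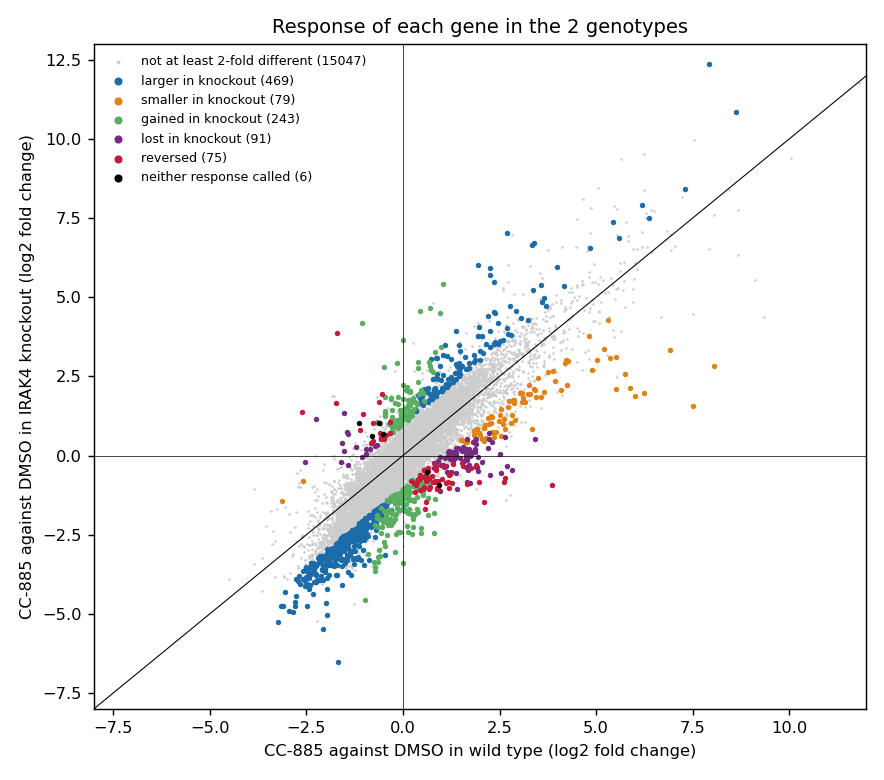
Each point is a gene tested, with its log2 fold change for CC-885 against DMSO in WT (x axis) and in the IRAK4 knockout (y axis); colours mark the 963 genes whose responses differ by at least 2-fold, by class, and the diagonal line marks equal responses. The 345 larger falls at the lower left are the most numerous class, while the 75 reversed genes lie in the upper left and lower right quadrants.

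A genotype difference that passed the test and reached 1.5-fold was present only under CC-885 for 470 of the 963 genes (48.8%) and only under DMSO for 231 (24%). It was present under both treatments and wider under CC-885 for 104 genes, narrower for 59 and of opposite sign for 60, and 39 genes had none of that size. Over all genes tested, 49.7% differed between genotypes under DMSO and 58.6% under CC-885 at an adjusted p under 0.05. A ratio of levels can also differ in the direction opposite to the change in CPM: for 87 of the 963 genes (9.03%) the sign of the interaction was opposite on mean CPM, and 69 of these were larger falls.

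The largest shift of any list examined was in type I interferon response genes, which mostly rose in WT, while fewer rose and more fell in the knockout. Of 44 genes tested, 37 had a lower response in the knockout (16.8% of all genes did) and none had a higher one (17.9% of all genes). Of the 44, 31 were lower by at least 2-fold (4.4% of all genes). In WT, 37 of the 44 rose and 1 fell, where 72.3% of all genes tested responded (35.7% up and 36.6% down). In the knockout, 10 rose and 18 fell, where 78.9% of all genes responded (38.9% up and 40% down). The median log2 response was 1.32 in WT and -0.05 in the knockout, and the median interaction was -1.37 against -0.01 over all genes. Under DMSO 39 of the 44 were already lower in the knockout (28.4% of all genes) and 3 were higher (21.3% of all genes), with a median of -1.12. Under CC-885 all 44 were lower (30.8% of all genes), with a median of -2.55. Without the third WT library with CC-885, 38 of the 44 were lower and 1 was higher, with a median of -1.14. In that fit 3245 of all genes were lower and 3627 higher, against 2691 and 2871 with all 12 libraries. Within the 51 libraries the list median was -1.31.

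The sequences below hold the letters of the element through which interferon-activated factors are known to act. They come from promoters of genes whose response differed and of genes whose response did not. They are 120-base windows upstream of the annotated start, from RefSeq promoters on GRCh38.p14, printed 5′ to 3′ along the gene; capitals mark the letters GAAANNGAAA, or the same letters read on the other strand (TTTCNNTTTC), with overlapping matches merged. SAMD9 lies at chr7:93118051-93118170 on the minus strand, IFIT5 at chr10:89414448-89414567 on the plus strand, IFITM1 at chr11:313920-314039 on the plus strand and ISG15 at chr1:1013332-1013451 on the plus strand, and all of them had lower responses in the knockout. ISG20 at chr15:88638892-88639011 on the plus strand and DDX60 at chr4:168318759-168318878 on the minus strand had no difference that passed the test.
SAMD9: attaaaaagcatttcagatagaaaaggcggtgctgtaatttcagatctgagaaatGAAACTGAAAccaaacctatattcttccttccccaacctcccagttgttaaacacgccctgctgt
IFIT5: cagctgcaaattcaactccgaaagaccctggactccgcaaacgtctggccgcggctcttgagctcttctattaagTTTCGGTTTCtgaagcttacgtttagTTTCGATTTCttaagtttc
IFITM1: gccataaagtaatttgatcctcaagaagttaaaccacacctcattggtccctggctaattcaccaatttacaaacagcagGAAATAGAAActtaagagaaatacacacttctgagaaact
ISG15: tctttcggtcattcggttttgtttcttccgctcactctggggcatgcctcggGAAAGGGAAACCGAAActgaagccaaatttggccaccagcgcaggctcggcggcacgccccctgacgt
ISG20: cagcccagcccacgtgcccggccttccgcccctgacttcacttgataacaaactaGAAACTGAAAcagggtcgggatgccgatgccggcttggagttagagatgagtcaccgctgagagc
DDX60: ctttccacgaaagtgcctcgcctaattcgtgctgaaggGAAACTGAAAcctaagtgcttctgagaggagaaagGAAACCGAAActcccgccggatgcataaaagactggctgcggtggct
These letters were found in 23 of the 36 interferon list promoters available (63.9%), and in 354 of the 11752 available promoters of genes tested (3.01%), each promoter being 300 bases. They were in 15 of 87 promoters (17.2%) of genes whose rise was lost or reversed. Those 15 include list members such as IFIT5, ISG15 and SAMD9, so the 2 shares are not separate observations. The share was 6.67% for smaller rises, 4.08% for larger falls and 2.9% for larger rises. Windows were printed only for promoters that hold these letters upstream of the start, so the windows cannot show whether the letters separate the responses. Such a match does not show binding.

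Among effectors, MX2, a dynamin-like GTPase that restricts viruses, had the largest interaction of the list. MX2 was at 17.9, 24.3 and 21.5 CPM in WT with DMSO and at 109, 112 and 174 CPM in WT with CC-885. MX2 in the knockout was at 37.2, 39.2 and 36 CPM with DMSO and at 22, 23.7 and 22.4 CPM with CC-885. The knockout started above WT and ended below every WT library with CC-885. The log2 response was 2.63 ± 0.16 in WT and -0.72 ± 0.17 in the knockout, and the interaction was -3.35 ± 0.23 (adjusted p = 2.4e-06). Among the 31 list genes of at least 2-fold, MX2 alone had genotype differences of opposite sign that passed the test and reached 1.5-fold under both treatments.

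CMPK2, a mitochondrial nucleotide kinase induced by interferon, was at 32.2, 41.2 and 39.2 CPM in WT with DMSO, 48.8, 54.6 and 63.7 CPM with CC-885, and in the knockout at 26.6, 27.2 and 29.7 CPM with DMSO and 8.39, 8.2 and 9.03 CPM with CC-885. The 4 groups did not overlap, and the knockout CC-885 group was the lowest. Its interaction was -2.27 ± 0.15 (adjusted p = 9.8e-08). SAMD9, an antiviral factor, had 109, 123 and 255 CPM in WT with CC-885 against 25.8, 23.3 and 19.5 CPM in the knockout with CC-885. SAMD9 had 54.2, 51.1 and 50.3 CPM in WT with DMSO and 36, 43.7 and 47 CPM in the knockout with DMSO. Its interaction was -2.53 ± 0.41 (adjusted p = 0.00131), and it was -2.04 without the third WT library with CC-885, the highest of the 12. DDX58, which encodes the cytosolic RNA sensor RIG-I, had an interaction of -2.22 ± 0.23 (adjusted p = 1.4e-05), from a log2 response of 1.20 ± 0.16 in WT and -1.02 ± 0.17 in the knockout. ISG15, a ubiquitin-like modifier, went from 23.9, 36.5 and 31.9 to 57.1, 62.1 and 102 CPM in WT, and from 13.6, 10.3 and 12.1 to 5.61, 6.35 and 7.9 CPM in the knockout. The WT and knockout libraries of ISG15 did not overlap under either treatment.

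Genes that rose in WT and had no response that passed the test in the knockout included IFIT5 and MX1. IFIT5, an RNA-binding antiviral protein, was at 2.97, 2.62 and 2.44 CPM in WT with DMSO, 10, 10.6 and 25.1 CPM in WT with CC-885, 0.9, 0.839 and 1.13 CPM in the knockout with DMSO and 0.699, 1.15 and 1.16 CPM in the knockout with CC-885. The knockout libraries of the 2 treatments overlapped. Its interaction was -2.46 ± 0.57 (adjusted p = 0.00732), but with limma voom it was -2.35 with an adjusted p of 0.0564, and the range over alternatives was -2.68 to -1.60. MX1, the cytoplasmic relative of MX2, had 42.7, 46 and 66.4 CPM in WT with CC-885 against 10.4, 14.8 and 12.5 CPM with DMSO. In the knockout MX1 had 1.79, 2.17 and 2.06 CPM with CC-885 against 1.98, 2.48 and 2.38 CPM with DMSO, and the interaction was -2.23 ± 0.27 (adjusted p = 4.2e-05). Outside the list, TRIM69, a tripartite motif protein, rose by 2.21 ± 0.20 in WT against 0.24 ± 0.21 in the knockout, and ESRP1, a splicing regulator of epithelial cells, rose by 1.69 ± 0.20 against -0.47 ± 0.22.

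A further pattern was a fall in the knockout with no response in WT that passed the test. IFITM1, a membrane protein that blocks viral entry, was at 23, 31.6 and 31.1 CPM in WT with DMSO and 26.5, 26.7 and 39.9 CPM in WT with CC-885, which overlap. In the knockout it went from 6.12, 5.61 and 6.14 CPM to 0.968, 1.17 and 1.24 CPM, and the interaction was -2.53 ± 0.26 (adjusted p = 1.1e-05).

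Factors that transmit the interferon signal also differed. STAT2 rose in both genotypes, by 1.85 ± 0.09 in WT and 0.78 ± 0.09 in the knockout, and IRF9 by 2.50 ± 0.09 and 1.28 ± 0.10. The gene of the ligand, IFNB1, had 0.699, 0.642 and 0.688 CPM in WT with CC-885 and 0.628, 0.689 and 1.13 CPM in the knockout with CC-885, which overlap. IFNB1 had no count in 5 of the 6 DMSO libraries, so no fold is given, and its interaction did not pass the test (adjusted p = 0.364). STAT2, IRF9, ISG15, ISG20, DDX60, IRF7 and IFNB1 were chosen after their values were seen.

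The list was not uniform. IRF7, the regulator that amplifies interferon production, rose by 3.26 ± 0.11 in WT and 3.61 ± 0.12 in the knockout (interaction 0.34 ± 0.16, adjusted p = 0.116), and this difference passed the test in 3 of 23 alternatives, among them those without the third WT library with CC-885 and without the first WT library with DMSO. ISG20, an exonuclease, was at 1, 1.01 and 0.884 CPM in WT with DMSO and 5.65, 5.37 and 7.42 CPM with CC-885, against 0.46, 0.437 and 0.457 CPM and 3.16, 2.71 and 3.3 CPM in the knockout. Its interaction was 0.08, with a 95% interval from -0.45 to 0.62, and that of DDX60, a helicase-like antiviral factor, was -0.09 with an interval from -0.58 to 0.39. Both genes were lower in the knockout under each treatment, ISG20 by log2 differences of -1.09 with DMSO and -1.01 with CC-885 and DDX60 by -1.15 and -1.24.

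**Figure D2:**
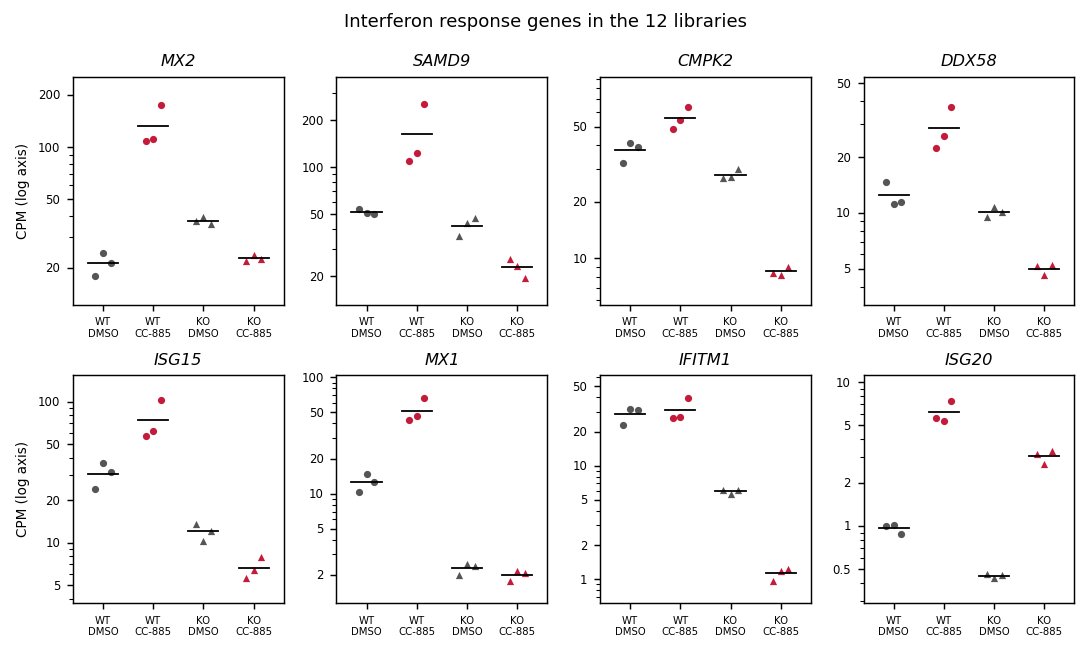
Normalised level in CPM (log axes) of 8 interferon response genes in each of the 12 libraries; circles are WT and triangles IRAK4KO, grey is DMSO and red CC-885, and bars are group means. MX2, SAMD9, CMPK2, DDX58 and ISG15 rise in WT and fall in the knockout, MX1 has a rise that passes the test in WT alone, IFITM1 a fall that passes in the knockout alone, and ISG20 rises in both.

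Integrated stress response genes rose in both genotypes, and the rise was smaller in the knockout for most of them. Of 38 genes tested, 28 had a lower response in the knockout (background 16.8%) and 2 a higher one (background 17.9%). Of the 38, 14 were lower by at least 2-fold (background 4.4%). In WT 37 of the 38 rose and in the knockout 34 rose (background 35.7% and 38.9%). The median log2 response was 2.60 in WT and 2.01 in the knockout, and the median interaction was -0.78. Under CC-885, 33 of the 38 were lower in the knockout (30.8% of all genes) and 2 higher (27.8%), with a median of -1.08. Under DMSO 19 were lower (28.4% of all genes) and 7 higher (21.3%), with a median of -0.18.

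ATF4, ATF3, PPP1R15A and DDIT3, chosen after their values were seen, had interactions from -0.51 to 0.83. ATF5, a further transcription factor, had an interaction of -1.80. ATF4, the transcription factor whose translation the pathway favours, went from 246, 218 and 241 to 1270, 1230 and 1570 CPM in WT and from 233, 221 and 221 to 1560, 1620 and 1730 CPM in the knockout, with an interaction of 0.34 ± 0.12 (adjusted p = 0.0355). That call was lost in 11 of 23 alternatives, 8 of them leaving out a library, with adjusted p up to 0.106, while every interaction stayed positive, between 0.26 and 0.52. The ATF4 libraries with CC-885 overlapped between genotypes. ATF3, a stress-induced factor, went from 1.65, 2.23 and 1.82 to 643, 651 and 677 CPM in WT and from 1.96, 1.75 and 1.97 to 629, 624 and 636 CPM in the knockout. The interaction of ATF3 was -0.05 with a 95% interval from -0.31 to 0.21. PPP1R15A, the phosphatase subunit that reverses eIF2alpha phosphorylation, reached 900, 874 and 844 CPM in WT with CC-885 and 1400, 1360 and 1420 CPM in the knockout, from 32.6, 30.6 and 29.9 and from 29.5, 27.3 and 27 CPM. PPP1R15A had the largest positive interaction of the list, 0.83 ± 0.08 (adjusted p = 3.4e-06). DDIT3, the factor CHOP, rose by 5.07 ± 0.09 in WT and 4.56 ± 0.09 in the knockout, with an interaction of -0.51 ± 0.13 (adjusted p = 0.007).

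The largest interactions of the stress list belonged to STC2, CHAC1, GDF15 and CTH. CHAC1, an enzyme that breaks down glutathione, went from 1.05, 0.765 and 1.06 to 57, 56 and 43.6 CPM in WT, and from 2.18, 1.84 and 1.45 to 10.6, 10.9 and 11.1 CPM in the knockout. CHAC1 was higher in the knockout with DMSO and lower with CC-885, without overlap in either case. Its interaction was -3.19 ± 0.22 (adjusted p = 1.5e-07). STC2, a secreted glycoprotein, reached 8.4, 8.2 and 7.3 CPM in WT with CC-885 and 1.31, 1.21 and 1.24 CPM in the knockout, from at most 0.402 CPM with DMSO, with an interaction of -3.43 ± 0.46 (adjusted p = 3.7e-05) that was -5.58 within the 51 libraries and between -3.85 and -3.01 under the other alternatives. CTH, which makes cysteine from cystathionine, rose by 4.89 ± 0.15 in WT and 2.70 ± 0.13 in the knockout. GDF15, a secreted stress cytokine, rose by 5.36 ± 0.23 and 3.08 ± 0.22. Outside the list, INHBE, an activin subunit, had 19.7, 21.9 and 21.3 CPM in WT with CC-885 and 5.08, 5.51 and 4.87 CPM in the knockout, from 0.15, 0.221 and 0.144 and from 0.52, 0.507 and 0.496 CPM with DMSO. The INHBE interaction was -3.58 ± 0.26 (adjusted p = 1e-07), the largest of the smaller rises named.

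The 2 reversed genes of the list encode consecutive enzymes of serine synthesis. PSAT1 went from 72.6, 89.3 and 85 to 209, 204 and 197 CPM in WT and from 71.8, 81.6 and 69.1 to 62.7, 61.3 and 60.7 CPM in the knockout, with an interaction of -1.57 ± 0.11 (adjusted p = 1.5e-07). PSPH went from 18, 17.2 and 16.4 to 47.5, 52 and 49.1 CPM in WT and from 19.1, 17.6 and 18.5 to 14.9, 15.8 and 16.1 CPM in the knockout, with an interaction of -1.76 ± 0.10 (adjusted p = 2.1e-08). With DMSO the genotypes overlapped for both genes. The first enzyme of that route, PHGDH, rose in both genotypes, by 1.41 in WT and 0.63 in the knockout. ATF5, a relative of ATF4, reached 444, 419 and 348 CPM in WT with CC-885 and 85.5, 82.9 and 84.7 CPM in the knockout, from 52, 55 and 54.3 and from 39.6, 38.4 and 39.2 CPM. SLC38A2, a transporter of neutral amino acids, reached 827, 816 and 829 CPM in WT and 133, 128 and 118 CPM in the knockout, from 200, 183 and 170 and from 82.8, 90.2 and 83.1 CPM. The knockout CC-885 libraries of SLC38A2 stayed below the WT libraries with DMSO. PSAT1, PSPH, PHGDH, ATF5 and SLC38A2 were chosen after their values were seen.

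Not every transporter or enzyme of the pathway differed. SLC7A11, the cystine transporter subunit, rose by 3.29 in WT and 3.16 in the knockout, and PCK2, the mitochondrial gluconeogenic enzyme, by 2.54 and 2.56, and neither interaction passed the test. Both were chosen after their values were seen. The interval for PCK2 ran from -0.20 to 0.23. Of the cytosolic aminoacyl-tRNA synthetases, which load amino acids onto tRNA, 7 of 20 had a lower response (background 16.8%) and 4 a higher one (background 17.9%), the latter a share near that of all genes. WARS, the tryptophan enzyme, was at 588, 573 and 489 CPM in WT with CC-885 and 270, 269 and 278 CPM in the knockout, from 108, 123 and 129 and from 123, 126 and 113 CPM. WARS is also induced by interferon gamma, and it was the member with at least a 2-fold difference (interaction -1.03 ± 0.11, adjusted p = 6.7e-06).

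Promoters of CHAC1 and ATF3 are shown because both hold the letters of the composite element that ATF4 binds, and CHAC1 had one of the largest interactions while that of ATF3 did not pass the test. Capitals mark TGATGNAA, or TTNCATCA on the other strand, in 120-base windows at chr15:40953221-40953340 on the plus strand and chr1:212565160-212565279 on the plus strand (RefSeq, GRCh38.p14).
CHAC1: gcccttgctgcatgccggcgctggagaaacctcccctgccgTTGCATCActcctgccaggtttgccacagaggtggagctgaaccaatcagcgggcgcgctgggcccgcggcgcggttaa
ATF3: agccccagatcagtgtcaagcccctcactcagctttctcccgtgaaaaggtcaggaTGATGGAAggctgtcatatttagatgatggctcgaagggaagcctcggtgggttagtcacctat
The element was in 9 of 60 available promoters (15%) of genes with a smaller rise, in 5 of 29 (17.2%) of the stress list and in 214 of 11752 (1.82%) of all genes tested. A match of letters is a description and does not show binding.

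**Figure D3:**
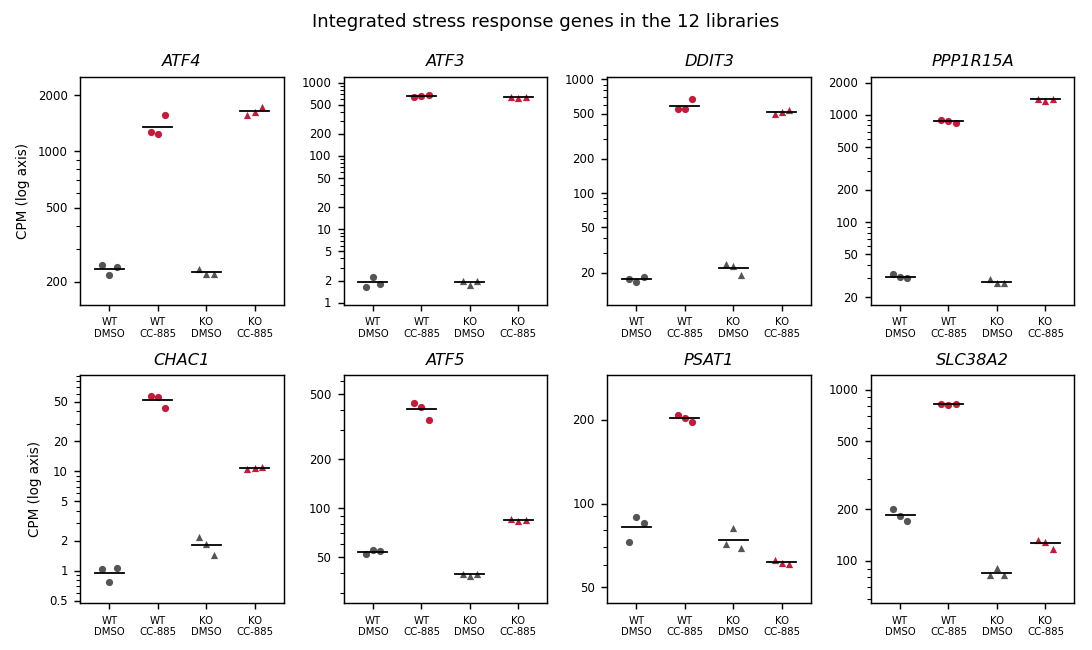
Normalised level in CPM (log axes) of 8 integrated stress response genes in each of the 12 libraries, with symbols as for the interferon genes: circles WT, triangles IRAK4KO, grey DMSO, red CC-885, bars group means. With CC-885 the knockout reaches 1360 to 1420 CPM of PPP1R15A against 844 to 900 in WT, and 624 to 636 CPM of ATF3 against 643 to 677, while CHAC1, ATF5, PSAT1 and SLC38A2 stay well below WT.

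DNA replication genes fell in both genotypes and fell further in the knockout. Of 41 genes tested, 29 had a lower response in the knockout (background 16.8%) and none a higher one (background 17.9%). Of the 41, 12 were lower by at least 2-fold (background 4.4%). In each genotype 40 of the 41 fell (background 36.6% in WT and 40% in the knockout). The median log2 response was -1.46 in WT and -2.11 in the knockout, and the median interaction was -0.68. UHRF1, which couples DNA methylation to replication, went from 198, 196 and 214 to 27.6, 29.8 and 29.7 CPM in WT and from 165, 172 and 179 to 6.64, 6.81 and 5.61 CPM in the knockout. The UHRF1 interaction was -1.96 ± 0.10 (adjusted p = 1.1e-08), and its sign was opposite on mean CPM, since WT lost more CPM than the knockout. MCM2, a subunit of the replicative helicase, went from 405, 385 and 391 to 96.5, 98.1 and 96.1 CPM in WT and from 417, 406 and 427 to 34.9, 34 and 34 CPM in the knockout, with an interaction of -1.58 ± 0.07 (adjusted p = 4.4e-09). RRM2, the small subunit of ribonucleotide reductase, had 22.4, 23.1 and 27.4 CPM in WT with CC-885 and 8.68, 9.04 and 7.9 CPM in the knockout. RRM2 had 117, 122 and 119 CPM in WT with DMSO and 137, 141 and 134 CPM in the knockout with DMSO, and the interaction was -1.71 ± 0.11 (adjusted p = 5.8e-08). The letters TTTNGCGC, as in sites of the E2F factors that drive these genes, or GCGCNAAA on the other strand, were in 13 of 35 promoters of the list and in 2.98% of all promoters. They were in 8 of 245 promoters (3.27%) of all larger falls, a share near that background. For MCM2 and RRM2 every knockout library was above every WT library with DMSO and below every one with CC-885.

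Among mitosis genes, 2 of 37 had a lower response in the knockout (background 16.8%), 7 a higher one (background 17.9%), and the median interaction was 0.03. The higher count is near the background, and over alternatives it ran from 4 to 9 and the lower count from 1 to 5. The 5 were reached without the third WT library with CC-885. That fit called 3245 genes lower over all genes, against 2691 with all 12 libraries. CDC20, the activator of the anaphase-promoting complex, was at 904, 961 and 668 CPM in WT with CC-885 and 1050, 1130 and 1160 CPM in the knockout, with an interaction of 0.75 ± 0.15 (adjusted p = 0.00115). CDC20 had 1130, 1020 and 1050 CPM in WT with DMSO and 882, 824 and 806 CPM in the knockout with DMSO. MYC, the transcription factor whose targets include the ribosome, went from 267, 275 and 277 to 87, 84.4 and 73.2 CPM in WT and from 317, 305 and 321 to 49.1, 47.1 and 51.6 CPM in the knockout. MYC libraries did not overlap under either treatment, and the interaction was -0.93 ± 0.09 (adjusted p = 3.2e-06). Of 40 MYC targets of ribosome biogenesis, 9 had a higher and 5 a lower response (background 17.9% and 16.8%), both near the shares over all genes. Without the third WT library with CC-885, 15 were higher, but the higher count over all genes also went from 2871 to 3627. The lower count of the list ran from 2 to 7 over alternatives. Of 56 cytosolic ribosomal protein genes, 16 had a lower response (background 16.8%) and none a higher one (background 17.9%), with a median interaction of -0.26. That median was -0.14 without the third WT library with CC-885 and -0.02 within the 51 libraries, where 18 and 13 genes were lower. RPL3, a core protein of the large subunit, fell by 0.69 ± 0.07 in WT and by 1.62 ± 0.07 in the knockout on the log2 scale.

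**Figure D4:**
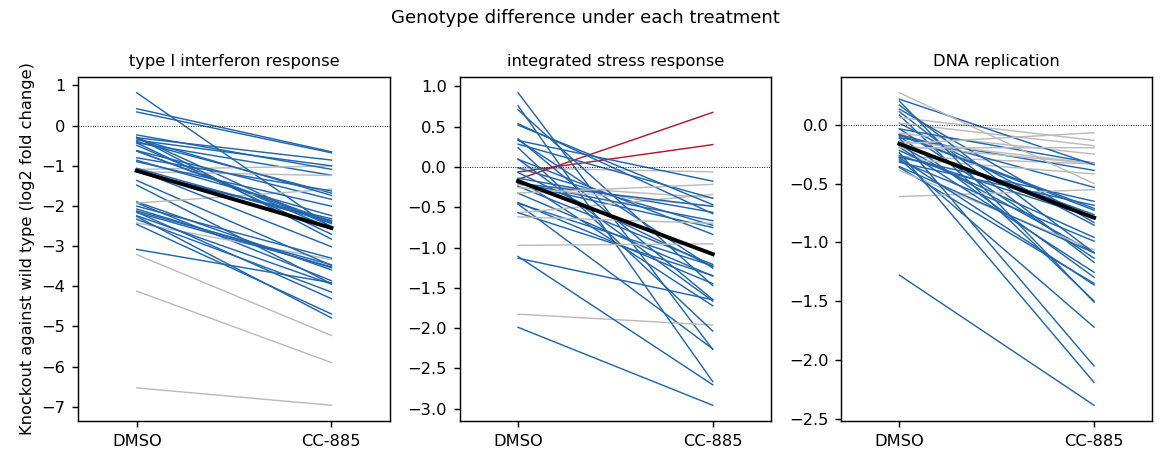
Knockout against WT (log2 fold change) under DMSO and under CC-885 for each gene of 3 lists, with a thin line per gene and a thick black line for the list median; blue and red lines are genes whose interaction passed the test as lower or higher, grey lines did not. The interferon median goes from -1.12 to -2.55, the stress median from -0.18 to -1.08 and the DNA replication median from -0.16 to -0.79.

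Among the lists examined, those with more higher than lower responses in the knockout included immediate early, inflammatory and RNA surveillance genes. Of 32 immediate early genes, which respond to signals without new protein synthesis, 13 had a higher response (background 17.9%) and 5 a lower one (background 16.8%). DUSP8, a phosphatase that inactivates stress kinases, went from 0.769, 1.01 and 0.884 to 378, 369 and 316 CPM in WT and from 0.28, 0.42 and 0.258 to 597, 604 and 610 CPM in the knockout. The groups of DUSP8 did not overlap, and the interaction was 2.22 ± 0.23 (adjusted p = 2.8e-06). Its size rests in part on low counts with DMSO, at most 1.01 CPM in WT and 0.42 CPM in the knockout. JUN, a subunit of AP-1, went from 22, 19.5 and 19.7 to 3470, 3430 and 2790 CPM in WT and from 18, 17 and 14 to 5700, 5540 and 5640 CPM in the knockout, with an interaction of 1.12 ± 0.14 (adjusted p = 2.1e-05). The AP-1 letters TGANTCA were in 5 of 69 promoters (7.25%) of genes with a larger rise and in 4.54% of all promoters. Their share was 7.35% for larger falls, 6.9% for rises lost or reversed and 6.67% for smaller rises, and 4% in the immediate early list. EGR4, a zinc finger factor, went the other way, with an interaction of -1.03 ± 0.19.

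Inflammatory genes under NF-kB were mixed, with 10 of 36 higher (background 17.9%) and 5 lower (background 16.8%). The median interaction was 0.08. Over alternatives the higher count ran from 8 to 12 and the lower count from 2 to 8. The 8 lower were reached without the third WT library with CC-885. In that fit 3245 of all genes were lower, against 2691 with all 12 libraries. TNF went from 9.38, 8.13 and 7.14 to 35.6, 31.4 and 28.2 CPM in WT and from 1.56, 0.892 and 0.755 to 15, 14.3 and 14.8 CPM in the knockout. The TNF interaction was 1.84 ± 0.25 (adjusted p = 6.2e-05), although each knockout group was below its WT counterpart and the gain in CPM was smaller in the knockout. ICAM1, an adhesion molecule, was at 5.36, 4.91 and 6.55 and then 5.32, 5.4 and 7.12 CPM in WT, which overlap, and at 1.64, 2.24 and 1.89 and then 4.43, 4.57 and 5.08 CPM in the knockout, with an interaction of 1.20 ± 0.22 (adjusted p = 0.000574). CCL4, a chemokine, had an interaction of 1.96 ± 0.66 (adjusted p = 0.0379), which did not pass the test in 8 of 23 alternatives, 6 of them leaving out a library. In the Toll-like and interleukin-1 receptor pathway, 8 of 32 had a higher and 9 a lower response (background 17.9% and 16.8%), and the lower count ran from 4 to 9 over alternatives, with the 4 reached without the third WT library with DMSO. MYD88, the adaptor that recruits IRAK4, was at 51.7, 51.4 and 50.4 and then 45.5, 45.8 and 43 CPM in WT, and at 46.4, 45.3 and 42.9 and then 23, 22.8 and 22.5 CPM in the knockout, an interaction of -0.79 ± 0.08 (adjusted p = 6.4e-06). PELI1, a ubiquitin ligase of the pathway, rose more in the knockout, by 0.78 ± 0.13.

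Of 17 factors of nonsense-mediated decay and termination, 12 had a higher response in the knockout (background 17.9%) and none a lower one (background 16.8%). The median interaction was 0.42. GSPT1, the target of CC-885, was at 214, 231 and 225 and then 253, 260 and 248 CPM in WT, and at 170, 189 and 181 and then 295, 300 and 299 CPM in the knockout. The GSPT1 transcript was thus lower in the knockout with DMSO and higher with CC-885, with an interaction of 0.54 ± 0.08 (adjusted p = 7.6e-05). ETF1, the partner of GSPT1 in termination, had an interaction of 0.81 ± 0.09 (adjusted p = 8.4e-06). CRBN, which encodes cereblon, was at 16.4, 15.5 and 15.8 and then 27.7, 30.3 and 56.2 CPM in WT, and at 16.3, 17.5 and 19.3 and then 35.7, 37.8 and 37.2 CPM in the knockout. The CRBN interaction of -0.20 ± 0.31 did not pass the test (adjusted p = 0.66) and was 0.19 without the third WT library with CC-885, which holds the 56.2. Of 32 proteasome genes, 12 had a higher and 2 a lower response (background 17.9% and 16.8%). The higher count ran from 7 with no filter on low counts to 21 without the third WT library with CC-885. Over all genes, 1993 and 3627 were higher in those fits, against 2871 in the main one.

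**Figure D5:**
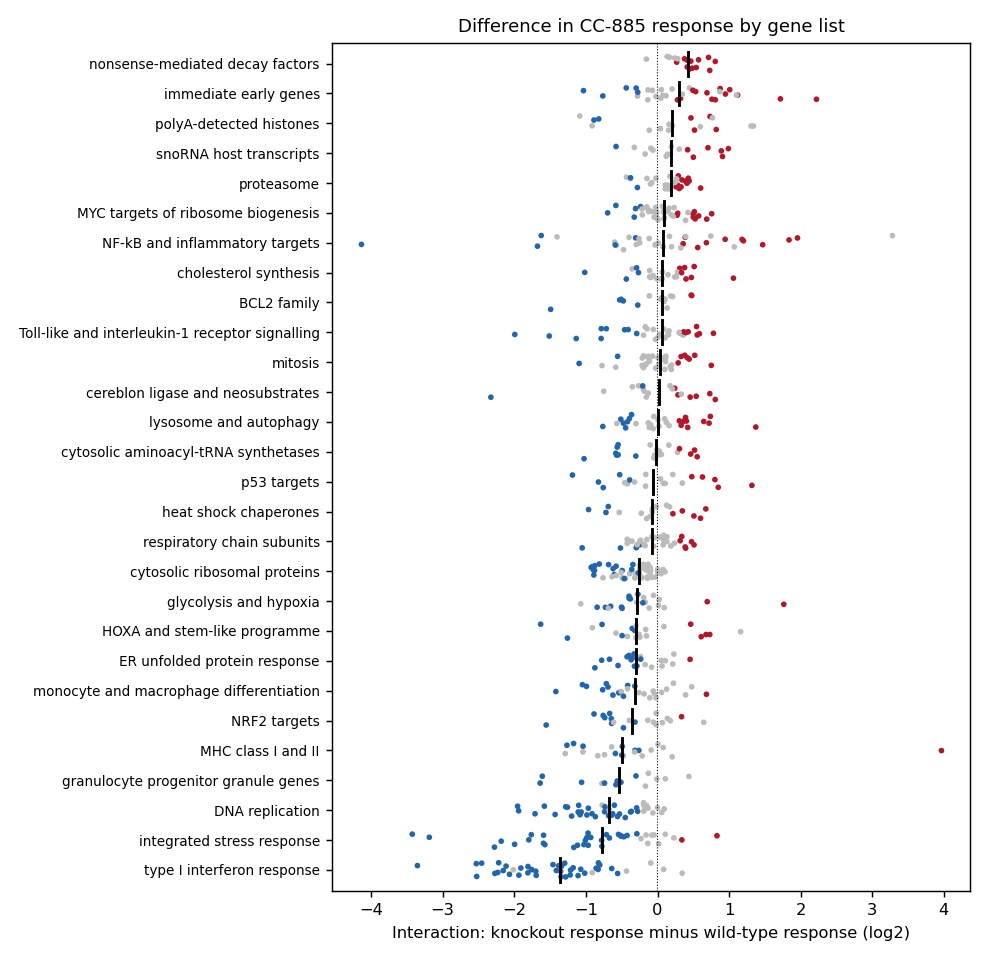
Interaction (knockout log2 response minus WT log2 response) of each gene of 28 lists; blue and red points passed the test as lower or higher, grey points did not, black bars are list medians and the dotted line is the median of all genes. The interferon list has its median at -1.37, the stress list at -0.78 and the DNA replication list at -0.68, and nonsense-mediated decay factors have the highest median, 0.42.

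Beyond the lists, the genes that fell in WT and rose in the knockout had smaller interactions. SEMA6B, a transmembrane semaphorin, went from 7.61, 7.85 and 7.43 to 4, 3.46 and 3.18 CPM in WT and from 5.48, 5.17 and 4.55 to 11.2, 7.51 and 7.77 CPM in the knockout, with an interaction of 1.91 ± 0.21 (adjusted p = 7.7e-06). ELK1, a partner of serum response factor, went from 25.2, 24.9 and 26.1 to 16.1, 15.4 and 12.8 CPM in WT and from 4, 3.85 and 3.02 to 7.57, 7.18 and 7.5 CPM in the knockout. ELK1 stayed below WT in every knockout library, and its interaction was 1.81 ± 0.15 (adjusted p = 9.7e-07). F3, the tissue factor that starts coagulation, had an interaction of 1.29 ± 0.16, and NR6A1, an orphan nuclear receptor, one of 1.39 ± 0.19.

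Genes with a rise gained or enlarged in the knockout included secreted factors. LIF, a cytokine of the interleukin-6 family, went from 0.705, 0.685 and 0.758 to 2.95, 2.53 and 2.81 CPM in WT and from 0.1, 0.0524 and 0.179 to 8, 6.7 and 6.85 CPM in the knockout. The LIF interaction was 4.08 ± 0.37 (adjusted p = 6.1e-07), with the knockout below WT under DMSO and above it under CC-885. Its size rests in part on the low counts of the knockout with DMSO, at most 0.179 CPM. THBS1, a matrix protein, had 18.8, 15.4 and 14 CPM in the knockout with CC-885 against 2.23, 2.8 and 2.37 CPM in WT, from at most 0.604 CPM with DMSO, and an interaction of 3.12 ± 0.35 (adjusted p = 1e-05). BMP2, a growth factor, was at 4.74, 4.33 and 4.18 and then 5.06, 4.04 and 4.15 CPM in WT, which overlap, and went from 2.14, 2.24 and 2.14 to 8.16, 6.87 and 7.6 CPM in the knockout. HK2, the inducible hexokinase of glycolysis, had 75.2, 60.7 and 57.9 CPM in the knockout with CC-885 against 18, 21.4 and 23.2 CPM with DMSO, while WT had 29.4, 30.9 and 38.2 against 29.4, 39.1 and 39.4 CPM. TFEB, the regulator of lysosome genes, had 79.7, 87.9 and 88 CPM in the knockout with CC-885 and between 28.5 and 40.1 CPM in the other 9 libraries, with an interaction of 1.37 ± 0.10 (adjusted p = 1.9e-07). PLEKHO1, a signalling adaptor, differed in the other way: the knockout with DMSO had 5.68, 5 and 4.75 CPM and the other 9 libraries between 19.1 and 25.5 CPM.

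Several myeloid genes fell from a higher level in the knockout. Of 12 monocytic leukaemia markers, 9 had a lower response in the knockout (background 16.8%) and none a higher one (background 17.9%), with a median interaction of -0.60. CSF1R, the receptor for macrophage colony-stimulating factor, went from 130, 123 and 131 to 76.8, 72.4 and 67.1 CPM in WT and from 239, 231 and 233 to 47.7, 51 and 49.2 CPM in the knockout. The CSF1R interaction was -1.42 ± 0.08 (adjusted p = 2.5e-08), with the knockout above WT under DMSO and below it under CC-885. LYZ, the secreted lysozyme, was at 964, 1020 and 967 and then 583, 679 and 851 CPM in WT, and at 1940, 2010 and 1110 and then 395, 399 and 392 CPM in the knockout. The third knockout library with DMSO was the lowest of its group for LYZ, and the interaction was -1.61 ± 0.28 (adjusted p = 0.00174). RNASE2, an eosinophil granule ribonuclease, went from 195, 214 and 232 to 42.4, 44.4 and 70.3 CPM in WT and from 632, 662 and 727 to 49.7, 56.6 and 52.7 CPM in the knockout, so that the genotypes overlapped with CC-885. In bulk RNA, fewer cells of a type and less RNA per cell cannot be told apart.

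Among the largest of the larger falls, RAB33A, a small GTPase, had 8.44, 7.95 and 9.16 CPM in WT with DMSO and 8.88, 8.93 and 8.62 CPM in the knockout, which overlap. With CC-885 RAB33A had 5.96, 6.1 and 6.59 CPM in WT and 1.08, 1.17 and 0.714 CPM in the knockout, an interaction of -2.70 ± 0.19 (adjusted p = 1.5e-07). TIFAB, an inhibitor of TRAF6 signalling, went from 27.2, 26.9 and 26.7 to 7.86, 7 and 5.64 CPM in WT and from 17.4, 16.9 and 11.6 to 0.753, 0.877 and 0.819 CPM in the knockout. The TIFAB interaction was -2.25 ± 0.24 (adjusted p = 5.8e-06) on the log2 scale, while the loss in CPM was larger in WT. WNT7B, a Wnt ligand, had 0.52, 0.501 and 0.525 CPM in the knockout with CC-885 and 4.09, 3.4 and 4.09 CPM in WT, from 11.3, 11.4 and 25.6 and from 25, 29.2 and 28.5 CPM. The WNT7B interaction of -2.12 ± 0.52 (adjusted p = 0.00737) had an adjusted p of 0.0563 with limma voom.

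Responses lost in the knockout were fewer among falls. TEF, a clock-controlled factor, went from 22.1, 23.8 and 24.4 to 12.3, 12.1 and 9.32 CPM in WT and stayed between 18.6 and 20.1 CPM in the 6 knockout libraries, with an interaction of 1.00 ± 0.13 (adjusted p = 3.9e-05). NEUROG3, a developmental factor, fell by 0.85 ± 0.17 in WT, and its knockout response was 0.20 ± 0.18. OSGIN1, a target of the oxidative stress factor NRF2, rose from 2.27, 3.36 and 2.87 to 8.79, 8.18 and 9.43 CPM in WT and was at 3.9, 3.44 and 3.49 and then 3.91, 3.59 and 3.93 CPM in the knockout, with an interaction of -1.55 ± 0.19 (adjusted p = 1.8e-05). Of 20 NRF2 targets, 9 had a lower and 1 a higher response (background 16.8% and 17.9%). Of 22 genes of the unfolded protein response of the endoplasmic reticulum, 12 had a lower and 1 a higher response against the same background, none by 2-fold. HSPA5, the chaperone BiP, was at 600, 618 and 615 and then 907, 894 and 897 CPM in WT, and at 750, 838 and 798 and then 716, 735 and 756 CPM in the knockout, which overlap (interaction -0.67 ± 0.08, adjusted p = 1.3e-05).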

How the data were processed

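PolyA RNA of 12 libraries was sequenced as paired reads. The deposited values are raw gene counts per symbol, made by the authors with HISAT2 2.0.5 and featureCounts 1.5.2 on GRCh38 after FastQC 0.11.2, per the submitters' processing notes. The labels' extraction protocol names FastQC 0.11.7 and a mouse genome instead, while the deposited table holds human symbols. Strand, multi-mapping and pair settings were not given in the sources used here, so paralogs and antisense partners may share reads. Every column of values matched a labelled sample.

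Here, counts were tested in R 4.3.3 with edgeR 4.0.16: filterByExpr by group (16010 genes, 99.98% of counts), TMM factors, 1 coefficient per group, robust quasi-likelihood F tests, and Benjamini-Hochberg adjustment over all genes. CPM use TMM-scaled library sizes. Classes need an adjusted p under 0.05 and an interaction of at least 1 on the log2 scale. Named genes are IRAK4, GSPT1, CRBN and MYC, up to 4 per class and direction and up to 4 per gene list with the largest absolute interactions and a group mean of at least 5 CPM, and others said to be chosen after their values were seen. Members and lists were chosen with earlier results of these data known, and so were the promoter motifs and windows. No set test was run. Alternatives covered scaling, filters, DESeq2 1.42.0, limma 3.58.1 (voom), blocks, library prefix, thresholds and leaving out each library. Scripts were tested on simulated data. Promoters (RefSeq, GRCh38.p14, 250 bases before to 50 after the start) matched 11752 of the genes tested by symbol or an unambiguous synonym. Some genes of these lists are not reported by name here.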

Additional observations from a re-analysis of the deposited data

Results flagged for a closer look

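The contrast is itself a test of whether the genotypes differ in their response, and 5562 genes passed it, 963 of them with a difference of at least 2-fold. Of those 963, 75 (7.79%) moved in opposite directions in the 2 genotypes. Both responses reached 1.5-fold for 27 of the 57 that rose in WT and for 7 of the 18 that fell in WT. With a rise in WT and a fall in the knockout, the interaction was -3.35 for MX2, -2.53 for SAMD9, -2.27 for CMPK2 and -2.22 for DDX58 on the log2 scale. With a fall in WT and a rise in the knockout, it was 1.91 for SEMA6B, 1.81 for ELK1, 1.39 for NR6A1 and 1.29 for F3. The other named genes that passed the test have their values in the report.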

How the results depend on the processing

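Over 23 alternatives of scaling, filter, tool, block and samples, the count of genes called ran from 4715 to 6872 and the count of at least 2-fold stayed within 1.5 times 963. Leaving out each library gave 4715 to 6872 called, 879 to 1110 of at least 2-fold, 62 to 79 reversed, 66 to 97 lost, 214 to 310 gained, 431 to 522 larger and 70 to 95 smaller responses. DESeq2 called 5752 genes and limma voom 5501. Deviations from group means correlated from -0.0346 to 0.232 between libraries of the same title number. Between WT with CC-885 and the knockout with DMSO the correlation was 0.209, -0.0217 and 0.232 for numbers 1, 2 and 3. With 3 libraries per group these values cannot decide whether the numbers pair the libraries. With a replicate block by title number, 5598 genes were called and 957 were of at least 2-fold. Of the called genes, 51.6% were positive in the main scaling, 39.7% with upper-quartile factors and 38.5% with no filter. With a mean CPM of at least 1, there were 146 positive genes of at least 2-fold, 45 lost, 102 gained, 148 differing only under DMSO and 39 narrower under CC-885; fewer genes enter that test. With 1.5-fold in place of 2-fold, 135 were reversed, 181 lost, 486 gained, 1634 larger and 175 smaller. At an adjusted p under 0.01, 37 were reversed and 154 gained. With a 2-fold genotype difference, 64 were wider under CC-885 and 14 of opposite sign. With upper-quartile factors 6.76% had the opposite sign on mean CPM. The cause of that last shift was not tested.

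Of 143 named genes over those alternatives (3289 values), no interaction that passed the test changed sign, and 19 genes lost their call under at least 1 setting. The interferon list had 33 to 40 genes with a lower response, the stress list 26 to 29 and the DNA replication list 27 to 32. The replicate block by library-name number called 4807 genes. The prefix as a covariate called 6408 genes, 995 of them of at least 2-fold, and gave 39 lower interferon genes. Counts at low CPM limit single genes: the CYP1A1 call was lost in 12 of the 23 alternatives.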

Other observations

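A few genes known as targets of the aryl hydrocarbon receptor, chosen after their values were seen and held together by no list, are described here, and they did not all move one way. CYP1B1, an enzyme that hydroxylates aromatic compounds, went from 11.1, 10.3 and 8.89 to 20.7, 21.1 and 19.8 CPM in WT and from 83, 95.1 and 102 to 1160, 712 and 640 CPM in the knockout, with an interaction of 2.14 ± 0.29 (adjusted p = 0.00035; 0.0523 within the 51 libraries). The knockout was above WT under both treatments. TIPARP, a feedback inhibitor of the receptor, went from 22.1, 23 and 23.4 to 263, 273 and 286 CPM in WT and from 19.5, 22.6 and 22.1 to 1030, 850 and 802 CPM in the knockout, with an interaction of 1.80 ± 0.12 (adjusted p = 1e-07). CYP1A1, the best known target, was at most 0.182 CPM in the 9 other libraries and at 10.5, 4.05 and 3.47 CPM in the knockout with CC-885. The CYP1A1 interaction was 4.37 ± 1.24 (adjusted p = 0.0307), a call lost in 12 of 23 alternatives, 8 of them leaving out a library. CYP1A1 had enough counts to be tested only through the group where it was high. Its fold and its test therefore rest on near-floor values in the other groups and are not independent support. The first knockout library with CC-885 was the highest for all of CYP1A1, CYP1B1 and TIPARP. AHR, the receptor itself, reached 154, 153 and 146 CPM in the knockout with CC-885 and 56.2, 64 and 62 CPM in WT, with an interaction of 0.62 ± 0.12 (adjusted p = 0.00115). AHRR, the receptor's repressor, had an interaction of 0.47 ± 0.17 that did not pass the test (adjusted p = 0.0509) but passed it in 8 of 23 alternatives. NQO1, which is also a member of the NRF2 list, fell more in the knockout, with an interaction of -0.76 ± 0.18 (adjusted p = 0.00441).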
